A study of Mus musculus with 16 samples.

Results

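Vascular growth in the mouse ventricle is described here through 10 genes chosen by name: the ligands Vegfa, Vegfb, Angpt1, Angpt2 and Apln, the receptors Flt1, Kdr and Tek, and the endothelial junction genes Pecam1 and Cdh5. All 10 were among the 55573 genes listed in the count table, and all 10 passed the filter on low counts that left 19955 genes to test. RNA was sequenced from the ventricles of 16 hearts of male mice, 4 hearts in each of 4 groups. The mice of every group, controls included, carried the genotype aMHC-MerCreMer;Trbp-Flox/Flox, in which a tamoxifen-inducible Cre is driven by the alpha myosin heavy chain promoter in cardiomyocytes. Trbp-cKO mice received tamoxifen at 30 mg/kg for 5 days from 4 weeks of age, and control mice received corn oil. Transverse aortic constriction (TAC), which narrows the aorta and loads the left ventricle, or a sham operation followed, and hearts were collected about 8 weeks after surgery, at 16 weeks of age. The groups were thus control sham, control TAC, Trbp-cKO sham and Trbp-cKO TAC. Tamoxifen itself and the loss of Trbp came together in every Trbp-cKO heart and cannot be told apart in these libraries. Most of the genes described are known from endothelial cells, outside the cells in which this promoter drives Cre, and whole ventricle mixes these cells with cardiomyocytes, fibroblasts and mural cells.

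As background, VEGF-A and VEGF-B are secreted growth factors that in the heart come largely from cardiomyocytes and act on receptors of the endothelial surface. KDR (VEGFR2) carries most of the growth signal of VEGF-A, whereas FLT1 (VEGFR1) binds VEGF-A and VEGF-B tightly, signals weakly and also exists as a soluble decoy. The angiopoietins act on the endothelial receptor TEK (TIE2), where ANGPT1 stabilises vessels and ANGPT2, released by endothelial cells, opposes it in many settings, and apelin is made by sprouting endothelial cells.

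The gene that was targeted, Tarbp2 (the mouse gene of TRBP), was measured at 30.6, 32.7, 33.3 and 32.4 CPM (counts scaled to a common library total) in control sham hearts 1 to 4 and at 25.2, 21.1, 30.6 and 31.1 CPM in control TAC hearts. It was at 9.09, 8.39, 11.4 and 9.21 CPM in Trbp-cKO sham hearts and at 7.14, 8.57, 9.05 and 9.74 CPM in Trbp-cKO TAC hearts, below every control heart. Libraries held 45166994 to 68274222 counts. Control TAC hearts 1 and 2 stood apart from the other 14: mitochondrial genes took 38.2% and 38.8% of their counts against 18.2% to 26.3%, the summed level of 10 cardiomyocyte markers was 29530 and 23358 CPM against 33519 to 61852 CPM, and that of 18 endothelial markers was 2679 and 3066 CPM against 1302 to 2311 CPM. All 18 endothelial markers, which include 5 of the genes described here, reached 1 CPM in at least 1 heart of every group. A score built from circadian clock genes was at -2.43 to -1.11 in control sham and 0.0038 to 0.22 in control TAC hearts. It was at 1.65 to 1.93 in Trbp-cKO sham and -1.79 to 0.99 in Trbp-cKO TAC hearts. The sham groups did not overlap in it, and neither did sham and TAC hearts within either genotype, whereas the TAC groups did. Many but not all values that turn or move by much when control TAC hearts 1 and 2 are left out are given with and without them.

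Promoter sequence was matched from RefSeq (GRCm38.p6) for 6 of the 10 genes, and the 150 bases before the start site are shown for both VEGF receptors, for Tek and for Vegfa (the first of its 2 listed starts) so that the receptors can be compared with the VEGF ligand whose sham groups did not overlap. Capitals mark 2 motifs searched on both strands. The first is GGAAG, letters found in sites bound by ETS factors, with its reverse CTTCC. Shorter or other letters bound by ETS factors were not searched. The second is ACGTG or GCGTG, the core of the hypoxia response element, with their reverses. Matches of the 2 motifs can share no more than an end base. All are written 5′ to 3′ on the strand of the gene.
Flt1: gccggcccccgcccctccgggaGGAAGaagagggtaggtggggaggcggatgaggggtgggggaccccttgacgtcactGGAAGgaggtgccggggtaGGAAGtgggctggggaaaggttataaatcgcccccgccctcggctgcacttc
Kdr: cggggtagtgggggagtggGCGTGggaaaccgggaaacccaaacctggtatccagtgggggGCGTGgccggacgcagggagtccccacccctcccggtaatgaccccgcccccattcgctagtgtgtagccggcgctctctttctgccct
Tek: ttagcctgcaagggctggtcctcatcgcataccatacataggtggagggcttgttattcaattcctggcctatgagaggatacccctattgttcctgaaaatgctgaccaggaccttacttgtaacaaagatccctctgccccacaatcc
Vegfa: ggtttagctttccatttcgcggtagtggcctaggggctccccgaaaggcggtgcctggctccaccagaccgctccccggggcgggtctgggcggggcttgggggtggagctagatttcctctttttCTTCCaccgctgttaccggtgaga
The Flt1 stretch lies at chr5:147726012-147726161 on the minus strand and holds 3 GGAAG matches, and the Kdr stretch at chr5:75978456-75978605 on the minus strand holds 2 matches of the hypoxia core and 0 of GGAAG. The Tek stretch at chr4:94739139-94739288 on the plus strand holds 0 of either, and the Vegfa stretch at chr17:46032378-46032527 on the minus strand holds 1 GGAAG. In the 250 bases before the start site, GGAAG was found in 64.1% and the hypoxia core in 38.6% of 32851 promoters, so a match is common and describes only these letters. In that longer window Flt1 also held 1 hypoxia core and Kdr 1 GGAAG.

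In the GENCODE annotation of GRCm38, Vegfa (ENSMUSG00000023951) lies at chr17:46016993-46032369, Vegfb (ENSMUSG00000024962) at chr19:6982473-6987651 and Apln (ENSMUSG00000037010) at chrX:48025146-48034853, all on the minus strand. The receptors are Flt1 (ENSMUSG00000029648) at chr5:147561604-147726011 and Kdr (ENSMUSG00000062960) at chr5:75932827-75978458 on the minus strand, and Tek (ENSMUSG00000006386) at chr4:94739289-94874976 on the plus strand. Pecam1 (ENSMUSG00000020717) lies at chr11:106654217-106750628 on the minus strand and Cdh5 (ENSMUSG00000031871) at chr8:104101625-104144511 on the plus strand. Angpt1 (ENSMUSG00000022309), at chr15:42424723-42676977 on the minus strand, shares 737 of its exon bases (14.2%) with the antisense gene Gm17473. Angpt2 (ENSMUSG00000031465), at chr8:18690263-18741562 on the minus strand, lies within Mcph1 on the other strand without a shared exon base. The sources used here do not say whether counting used strand, so reads of Angpt1 and Gm17473 in that stretch cannot be told apart.

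Scaled by exon length, the VEGF ligands stood highest and the angiopoietins lowest. In control sham hearts Vegfb was at 126 ± 10.3 CPM per kb (SD, n = 4) and Vegfa at 109 ± 11.6 CPM per kb. The endothelial genes followed, with Cdh5 at 43.4 ± 3.60, Pecam1 at 24.1 ± 1.98, Kdr at 21.1 ± 2.96, Tek at 13.2 ± 0.727 and Flt1 at 11.4 ± 1.26 CPM per kb. Apln at 3.79 ± 0.424, Angpt1 at 2.96 ± 0.564 and Angpt2 at 1.28 ± 0.0503 CPM per kb were the least abundant. The ranges of the 4 hearts overlapped between Pecam1 and Kdr and between Apln and Angpt1, and not between the other neighbours in this order. With the longest transcript in place of all exon bases Flt1 stood above Tek. All other values below are CPM of the whole gene, and a difference is a log2 fold change of CPM with its standard error (SE).

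**Figure D1:**
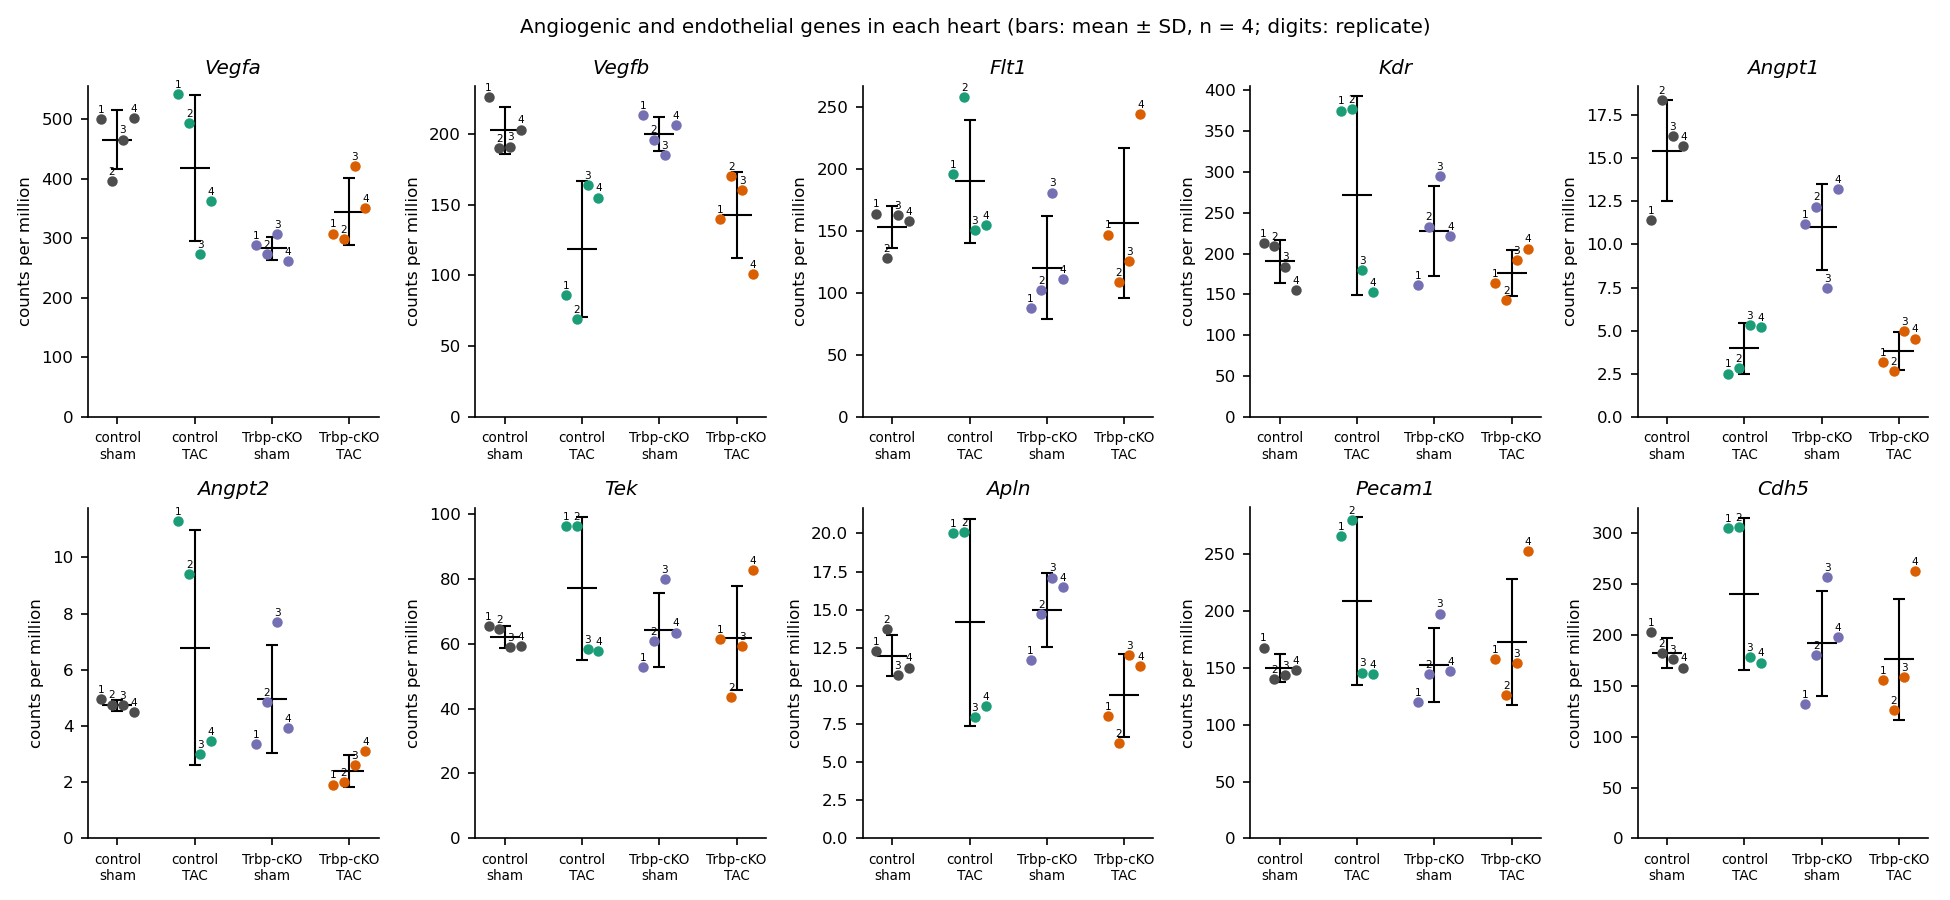
Each panel plots 1 gene, with CPM on a linear axis from 0 and the 4 groups side by side. Points are hearts, the digit above a point is the replicate, and bars give the mean and SD of 4 hearts. Angpt1 is at 2.51 to 5.30 CPM in all TAC hearts and at 7.48 to 18.4 CPM in all sham hearts.

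Angpt1 was the one gene of the 10 called after TAC in both genotypes, and it fell. A gene was called where its adjusted p in edgeR's quasi-likelihood test, with Benjamini-Hochberg adjustment over 19955 genes, was at most 0.05 and its log2 fold change at least 0.8 in size. In control TAC against control sham, 1 of the 10 genes was called, Angpt1, lower, where 3.75% of all genes were called. In Trbp-cKO sham against control sham 0 of the 10 were called by edgeR, against 0.967% of all genes, 1 of the 10 had an unadjusted p under 0.05, and DESeq2 also called 0. Between the TAC groups 1 was called, Angpt2, lower in Trbp-cKO, against 2.46% of all genes. After TAC in Trbp-cKO hearts 1 was called, Angpt1, lower, against 5.57% of all genes. In the interaction, which sets the TAC effect in Trbp-cKO hearts against that in control hearts, edgeR called 0 of the 10 against 0.872% of all genes, with 3 at an unadjusted p under 0.05, and DESeq2 called 0. The comparisons share groups and are not independent of each other. In bulk tissue, fewer cells of a type and less RNA per cell cannot be told apart.

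Over the 10 genes, the median log2 fold change was 0.31 in control TAC against control sham, with 7 genes above 0, where the median of all genes was 0.02. With control TAC hearts 1 and 2 left out, 0 of the 10 were above 0 there and the median was -0.27. It was 0.04 in Trbp-cKO sham against control sham, with 6 above 0 and a median of 0.0099 over all genes. Between the TAC groups, Trbp-cKO against control, it was -0.30, with 1 above 0 and a median of -0.01 over all genes. This too turned when those hearts were left out, to a median of 0.045 with 6 above 0. After TAC in Trbp-cKO hearts the median was -0.25 with 3 above 0, and -0.25 with 3 above 0 when they were left out, where the median of all genes was -0.0016. Counting genes whose 4 hearts of one group all lay beyond the 4 of the other, 2 of the 10 were lower in control TAC than in control sham (17.4% of all genes did not overlap in either direction). The count was 1 lower in Trbp-cKO sham than in control sham (14.7%), 0 between the TAC groups (10%) and 3 lower in Trbp-cKO TAC than in Trbp-cKO sham (17.2%). Higher without overlap were 0 of the 10 in each of these 4 comparisons.

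**Figure D2:**
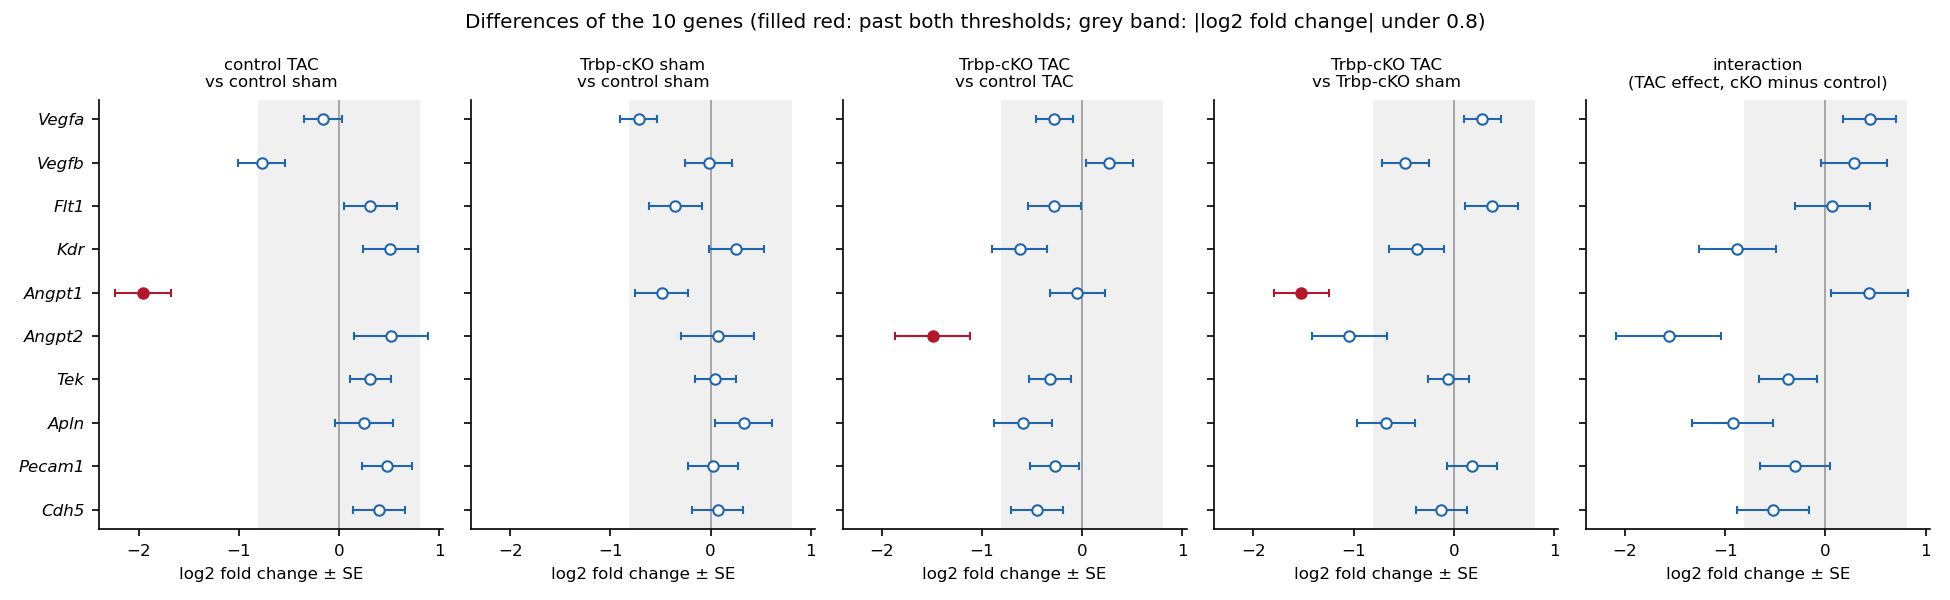
Each panel is 1 comparison, with the log2 fold change on the x axis, bars of 1 SE and the 10 genes on the y axis. Filled red points passed both thresholds: Angpt1 after TAC in each genotype, and Angpt2 between the TAC groups.

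Vegfa, the main growth factor for endothelial cells, was lower in Trbp-cKO sham hearts than in control sham hearts in every heart, short of both thresholds. It was at 500, 396, 466 and 502 CPM in control sham hearts 1 to 4 and at 289, 274, 307 and 262 CPM in Trbp-cKO sham hearts. It was at 542, 494, 274 and 362 CPM in control TAC hearts and at 308, 299, 422 and 351 CPM in Trbp-cKO TAC hearts. The sham groups did not overlap, whereas the TAC groups did, with control TAC hearts 1 and 2 above all Trbp-cKO TAC hearts and control TAC heart 3 below them. Between the sham groups the log2 fold change was -0.72 (SE 0.19, adjusted p = 0.0713 by edgeR), 1.65-fold lower, and the exact permutation test gave p = 0.029, two-sided, the smallest that the 70 assignments of 4 against 4 hearts allow. It was called in 0 of 29 alternative settings. Its log2 fold change ran from -0.79 to -0.29, and its adjusted p from 7.74e-08 by edgeR's exact test on the 2 groups to 0.910. Without control TAC hearts 1 and 2 the adjusted p was 0.0110 at -0.73. With the clock score as a covariate it was 0.910 at -0.29. The sham groups did not overlap in the clock score, so that fit cannot tell the score from the group difference. The part of the clock score in this difference was not tested. Vegfa differed by -0.16 (SE 0.19, adjusted p = 0.613) after TAC in control hearts, which became -0.55 (adjusted p = 0.180) with hearts 1 and 2 left out, and by 0.29 (SE 0.19, adjusted p = 0.409) in Trbp-cKO hearts. Its interaction was 0.44 (SE 0.27, adjusted p = 0.452), and 0.83 (adjusted p = 0.0891) with those hearts left out. Between the TAC groups it was -0.28 (SE 0.19, adjusted p = 0.419), and 0.11 (adjusted p = 0.804) with them left out.

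Vegfb, a VEGF family ligand abundant in cardiac muscle, was lower after TAC in every heart of both genotypes, without passing the thresholds. It was at 226, 190, 191 and 203 CPM in control sham hearts and at 85.8, 69.0, 164 and 155 CPM in control TAC hearts. It was at 213, 196, 185 and 206 CPM in Trbp-cKO sham hearts and at 140, 170, 160 and 101 CPM in Trbp-cKO TAC hearts. Neither pair of sham and TAC groups overlapped, and the lowest values were those of control TAC hearts 1 and 2, below the 101 to 226 CPM of the other 14 hearts. The log2 fold change after TAC was -0.77 (SE 0.24, adjusted p = 0.0612) in control hearts and -0.48 (SE 0.23, adjusted p = 0.234) in Trbp-cKO hearts, each with an exact permutation p of 0.029. The control difference was called in 2 of 29 alternative settings, without control TAC heart 3 (-0.97) or heart 4 (-0.93), and was -0.34 (adjusted p = 0.528) without hearts 1 and 2. Cardiomyocyte markers summed lowest in the same 2 hearts, and their part in the Vegfb difference was not tested. Genotype made a log2 difference of -0.02 (SE 0.23, adjusted p = 0.987) in sham hearts and 0.27 (SE 0.23, adjusted p = 0.538) in TAC hearts, the latter -0.17 (adjusted p = 0.644) with control TAC hearts 1 and 2 left out.

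Angpt1, the ligand that activates TEK, fell after TAC in both genotypes. It was at 11.4, 18.4, 16.3 and 15.7 CPM in control sham hearts and at 2.51, 2.83, 5.30 and 5.23 CPM in control TAC hearts. It was at 11.2, 12.2, 7.48 and 13.2 CPM in Trbp-cKO sham hearts and at 3.19, 2.63, 4.97 and 4.54 CPM in Trbp-cKO TAC hearts. Every TAC heart was below every sham heart of either genotype. The fall was -1.96 (SE 0.28, adjusted p = 0.00144), 3.88-fold, in control hearts and -1.52 (SE 0.27, adjusted p = 0.00224), 2.87-fold, in Trbp-cKO hearts. The interaction was 0.44 (SE 0.38, adjusted p = 0.619), and 0.03 (adjusted p = 0.993) with control TAC hearts 1 and 2 left out. In Trbp-cKO hearts the call was kept in all 29 alternative settings, at -2.12 to -1.38. In control hearts it was lost in 1 of 29, with the clock score as a covariate (-1.46, adjusted p = 0.103), and without control TAC hearts 1 and 2 it was -1.55 (adjusted p = 0.0239). Between genotypes Angpt1 differed by -0.49 (SE 0.27, adjusted p = 0.461) in sham and -0.05 (SE 0.27, adjusted p = 0.938) in TAC hearts, where the groups overlapped. The latter was -0.47 (adjusted p = 0.387) with control TAC hearts 1 and 2 left out.

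Angpt2, the endothelial ligand that competes with ANGPT1 for TEK, was lower in Trbp-cKO TAC than in control TAC hearts on the fit, though the groups overlapped. It was at 4.95, 4.76, 4.73 and 4.49 CPM in control sham hearts and at 11.3, 9.39, 3.01 and 3.46 CPM in control TAC hearts. It was at 3.36, 4.86, 7.69 and 3.93 CPM in Trbp-cKO sham hearts and at 1.91, 1.99, 2.61 and 3.11 CPM in Trbp-cKO TAC hearts. The control TAC hearts fell apart into hearts 1 and 2, above all 14 others, and hearts 3 and 4, below every control sham heart, and Trbp-cKO TAC heart 4 at 3.11 CPM was above control TAC heart 3. The difference between the TAC groups was -1.49 (SE 0.38, adjusted p = 0.0320), 2.82-fold lower, with an exact permutation p of 0.0571. Without control TAC hearts 1 and 2 it was -0.44 (adjusted p = 0.435), and the call was also lost with either of these hearts, or any one of Trbp-cKO TAC hearts 1, 2 and 3, left out, with the replicate block and with only the 2 groups in the fit, 8 of 29 alternative settings in all. Endothelial markers summed highest in control TAC hearts 1 and 2. With the endothelial marker mean as a covariate the difference was -0.81 (adjusted p = 0.0136) and still called. Against Trbp-cKO sham hearts, Angpt2 in Trbp-cKO TAC hearts was lower in every heart, at -1.04 (SE 0.37, adjusted p = 0.0956), 2.06-fold, with an exact permutation p of 0.029. That difference passed both thresholds in 6 of 29 alternative settings, among them DESeq2 and the fit without control TAC hearts 1 and 2 (-1.05, adjusted p = 0.00645). Beside Angpt1 and Angpt2, the summed level of 8 pericyte markers was also lower without overlap there, at 810 to 899.7 CPM in Trbp-cKO TAC and 926 to 1174 CPM in Trbp-cKO sham hearts, with 6 of 8 below 0, Vtn called lower and Cspg4 called higher, and its part in these differences was not tested. After TAC in control hearts it was 0.52 (SE 0.37, adjusted p = 0.363), and -0.55 (adjusted p = 0.545) without hearts 1 and 2. The interaction was -1.56 (SE 0.52, adjusted p = 0.166), and -0.50 (adjusted p = 0.640) without them.

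Apln, the precursor of apelin, was highest in control TAC hearts 1 and 2, like Angpt2, and was called in no comparison. It was at 12.3, 13.7, 10.7 and 11.2 CPM in control sham hearts and at 20.0, 20.1, 7.93 and 8.67 CPM in control TAC hearts. It was at 11.7, 14.7, 17.1 and 16.5 CPM in Trbp-cKO sham hearts and at 8.00, 6.26, 12.0 and 11.3 CPM in Trbp-cKO TAC hearts. Control TAC hearts 1 and 2 were the highest of all and hearts 3 and 4 lay below all control sham hearts, while 1 Trbp-cKO TAC heart at 12.0 CPM overlapped the lowest Trbp-cKO sham heart. The log2 fold change was -0.68 (SE 0.29, adjusted p = 0.166) after TAC in Trbp-cKO hearts and 0.25 (SE 0.29, adjusted p = 0.599) in control hearts. The latter was -0.53 (adjusted p = 0.433) without control TAC hearts 1 and 2. Between the TAC groups Apln differed by -0.59 (SE 0.29, adjusted p = 0.248), and by 0.17 (adjusted p = 0.763) without these hearts. The interaction was -0.92 (SE 0.41, adjusted p = 0.285), and -0.16 (adjusted p = 0.905) without them.

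Of the receptors, Kdr, the main signalling receptor of VEGF-A, was at 213, 209, 184 and 155 CPM in control sham hearts and at 375, 377, 180 and 153 CPM in control TAC hearts. It was at 161, 233, 295 and 221 CPM in Trbp-cKO sham hearts and at 164, 143, 192 and 206 CPM in Trbp-cKO TAC hearts. Control TAC hearts 1 and 2 were above all others, and every pair of groups overlapped. The difference between the TAC groups was -0.62 (SE 0.27, adjusted p = 0.199) and turned to 0.07 (adjusted p = 0.911) without these 2 hearts. After TAC it was 0.51 (SE 0.27, adjusted p = 0.235) in control hearts, -0.19 (adjusted p = 0.874) without hearts 1 and 2, and -0.37 (SE 0.27, adjusted p = 0.474) in Trbp-cKO hearts. The interaction was -0.88 (SE 0.39, adjusted p = 0.284), and -0.18 (adjusted p = 0.876) without them.

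Flt1, the receptor that binds both VEGF ligands, was at 164, 128, 163 and 158 CPM in control sham hearts and at 196, 258, 151 and 155 CPM in control TAC hearts. It was at 87.5, 102, 181 and 111 CPM in Trbp-cKO sham hearts and at 147, 109, 126 and 244 CPM in Trbp-cKO TAC hearts. In Trbp-cKO sham, 3 of 4 hearts lay below every control sham heart and heart 3 lay above them. The difference between the sham groups was -0.35 (SE 0.26, adjusted p = 0.642). The other differences were 0.31 (SE 0.26, adjusted p = 0.462) after TAC in control hearts, 0.38 (SE 0.27, adjusted p = 0.445) in Trbp-cKO hearts and -0.28 (SE 0.26, adjusted p = 0.575) between the TAC groups. With control TAC hearts 1 and 2 left out, Flt1 was at -0.0050 (adjusted p = 0.999) after TAC in control hearts and 0.021 (adjusted p = 0.985) between the TAC groups.

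Tek, the angiopoietin receptor, was at 65.4, 64.6, 58.9 and 59.3 CPM in control sham hearts and at 96.3, 96.1, 58.2 and 57.8 CPM in control TAC hearts. It was at 52.7, 60.7, 79.8 and 63.4 CPM in Trbp-cKO sham hearts and at 61.4, 43.5, 59.3 and 82.6 CPM in Trbp-cKO TAC hearts. Control TAC hearts 1 and 2 were again the highest, and all groups overlapped. Its 4 differences lay between -0.32 and 0.31 with adjusted p from 0.329 to 0.960. Both ends of that range turned with control TAC hearts 1 and 2 left out, to -0.097 (adjusted p = 0.954) after TAC in control hearts and 0.076 (adjusted p = 0.892) between the TAC groups. While Angpt1 fell, its receptor showed no difference past the thresholds.

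Of the junction genes, Pecam1, an adhesion molecule of endothelial contacts, was at 168, 140, 144 and 148 CPM in control sham hearts and at 266, 280, 146 and 145 CPM in control TAC hearts. It was at 120, 145, 198 and 147 CPM in Trbp-cKO sham hearts and at 158, 126, 154 and 253 CPM in Trbp-cKO TAC hearts. Cdh5, the cadherin of the endothelial adherens junction, was at 203, 182, 176 and 168 CPM in control sham and at 305, 306, 178 and 173 CPM in control TAC hearts. For both genes the same hearts were highest: control TAC hearts 1 and 2, Trbp-cKO sham heart 3 and Trbp-cKO TAC heart 4. Cdh5 was at 132, 180, 257 and 198 CPM in Trbp-cKO sham and at 156, 126, 159 and 263 CPM in Trbp-cKO TAC hearts. After TAC in control hearts Pecam1 differed by 0.48 (SE 0.25, adjusted p = 0.223) and Cdh5 by 0.40 (SE 0.26, adjusted p = 0.319). Without control TAC hearts 1 and 2 these were -0.04 (adjusted p = 0.983) and -0.06 (adjusted p = 0.978). Between the TAC groups Pecam1 was at -0.28 (adjusted p = 0.554) and Cdh5 at -0.45 (adjusted p = 0.324). With those hearts left out they were at 0.23 (adjusted p = 0.656) and -0.0064 (adjusted p = 0.995). Their interactions were -0.30 (adjusted p = 0.719) and -0.52 (adjusted p = 0.519), and 0.22 and -0.07 with those hearts left out.

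The 4 hearts with the highest Cdh5 were those in which other endothelial markers were highest. The summed level of 13 endothelial markers that are not among the 10 genes was 1440 and 1749 CPM in control TAC hearts 1 and 2, 1222 CPM in Trbp-cKO sham heart 3 and 1262 CPM in Trbp-cKO TAC heart 4. In the other 12 hearts it was 749 to 903 CPM. All 13 of these markers reached 1 CPM in at least 1 heart of every group. With the mean of these 13 markers, which holds none of the 10 genes, as a covariate, the differences after TAC in control hearts became -0.19 for Flt1, -0.10 for Kdr, -0.13 for Tek, -0.08 for Pecam1 and -0.14 for Cdh5. Angpt2 was at 3.11 CPM in Trbp-cKO TAC heart 4, the highest of its group, and at 7.69 CPM in Trbp-cKO sham heart 3, also the highest of its group.

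**Figure D3:**
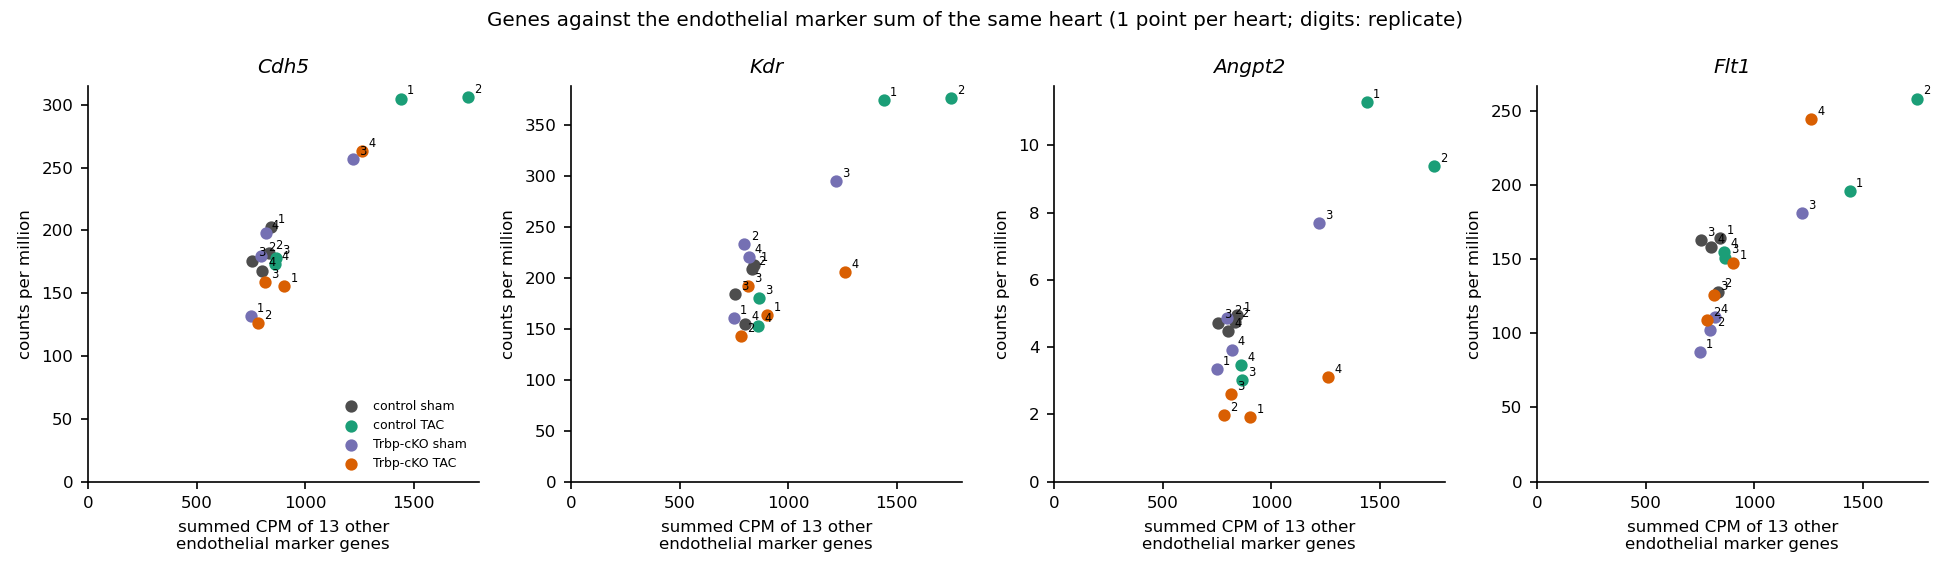
Each point is 1 heart, labelled with its replicate, with the summed CPM of 13 other endothelial markers on the x axis and the CPM of the gene on the y axis, both linear and from 0. The 4 hearts at 1222 CPM or more on the x axis include the hearts with the highest Cdh5 and Flt1, whereas Trbp-cKO TAC heart 4 is at 206 CPM for Kdr and 3.11 CPM for Angpt2.

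Across the 16 hearts, 7 genes (Flt1, Kdr, Tek, Pecam1, Cdh5, Angpt2 and Apln, grouped after their values were seen) had Pearson correlations of log2 CPM between 0.31 and 0.97 over their 21 pairs, with a median of 0.81. Without control TAC hearts 1 and 2 the median was 0.70 and the range -0.03 to 0.95. These are descriptions over hearts that share libraries and total-count scaling, and carry no test. Tek and Cdh5 were the closest pair at 0.97, and 0.95 without the 2 hearts. Kdr was closer to Apln (0.88) and Angpt2 (0.87) than to the other VEGF receptor Flt1 (0.54), and without the 2 hearts these were 0.82, 0.72 and 0.23. Vegfb ran against Pecam1 at -0.85, and -0.62 without them. Angpt1 stood at 0.75 with Vegfb and at 0.05 with Angpt2, which became 0.69 and 0.73 without control TAC hearts 1 and 2.

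**Figure D4:**
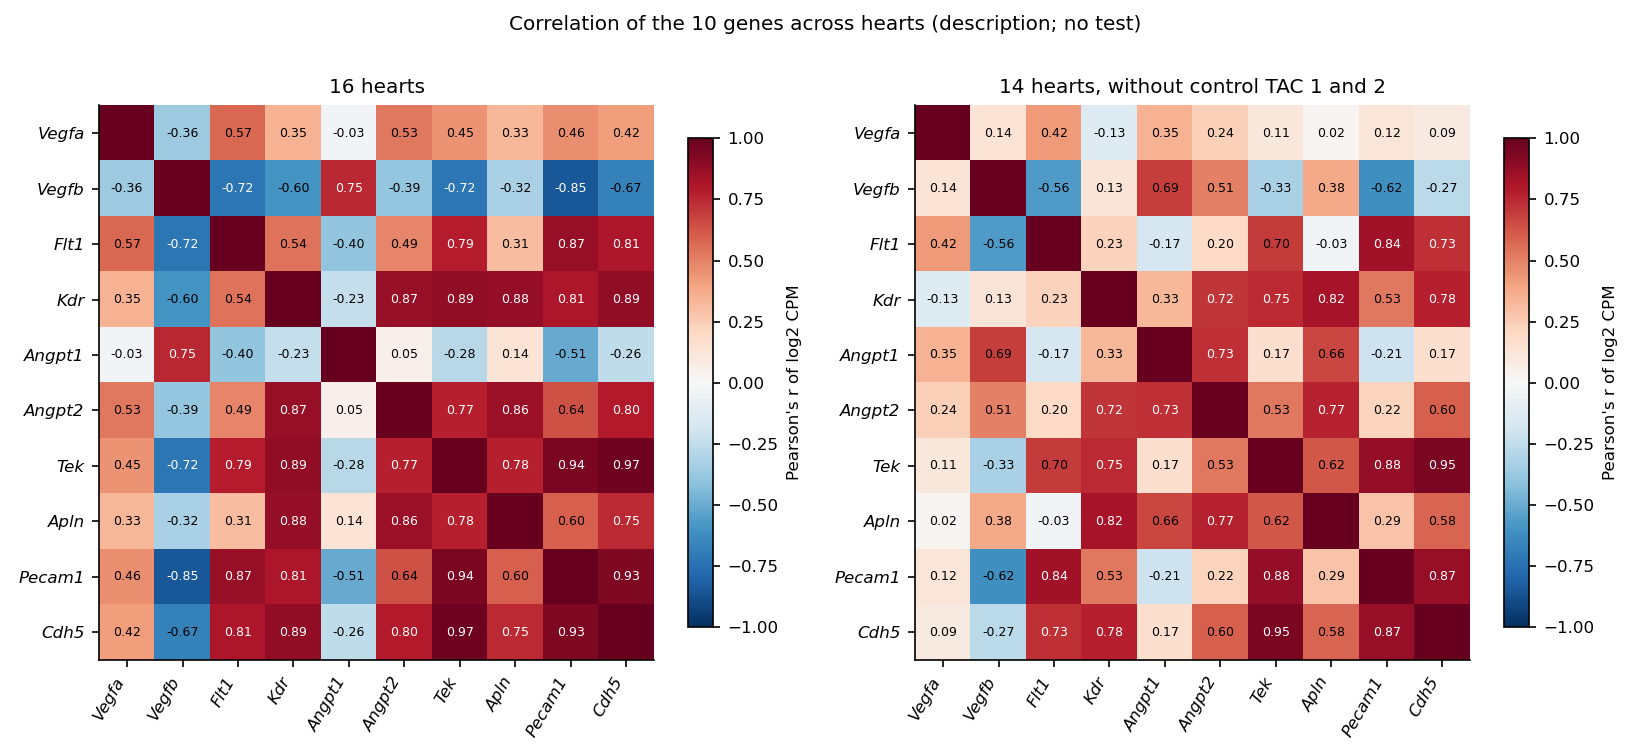
Squares give Pearson's r of log2 CPM for each pair of the 10 genes, over 16 hearts on the left and over 14 hearts, without control TAC hearts 1 and 2, on the right. Red stands for positive and blue for negative values, and the highest off the diagonal is 0.97 for Tek and Cdh5.

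Ratios within a heart cancel what scales both genes alike, and 5 were compared in 4 comparisons with exact permutation tests on log2 values with a pseudocount of 0.5 CPM. Of the 20 tests, 0 passed an adjusted p of 0.05. The lowest adjusted p was 0.0816, shared by every ratio whose groups did not overlap, at p = 0.029 in the exact test. The log2 ratio of Flt1 to Kdr was -0.94 ± 0.20 in Trbp-cKO sham, -0.31 ± 0.31 in control sham hearts and -0.23 ± 0.36 after TAC in Trbp-cKO hearts (SD, n = 4). It was lower in all 4 Trbp-cKO sham hearts than in control sham hearts (by 0.63) or Trbp-cKO TAC hearts (by 0.71). The gap to control sham was narrow, with the highest Trbp-cKO sham heart at -0.706 and the lowest control sham heart at -0.703. The ratio of Flt1 to the mean of Pecam1 and Cdh5 behaved likewise: it was -0.53 ± 0.15 in Trbp-cKO sham hearts, -0.11 ± 0.16 in control sham hearts and -0.17 ± 0.11 after TAC in Trbp-cKO hearts, with the nearest hearts at -0.321, -0.316 and -0.311.

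The ratio of Vegfa to Vegfb was 0.50 ± 0.16 in Trbp-cKO sham hearts, 1.20 ± 0.12 in control sham hearts and 1.28 ± 0.41 after TAC in Trbp-cKO hearts, again without overlap. In control TAC hearts it was 1.86 ± 1.04, with hearts 1 and 2 at 2.65 and 2.83 and hearts 3 and 4 at 0.74 and 1.22. The ratio of Angpt2 to Angpt1 was -1.59 ± 0.32 in control sham and 0.57 ± 1.40 in control TAC hearts, a difference of 2.16 with every TAC heart higher. Control TAC hearts 1 and 2, at 1.97 and 1.57, made most of it: without them the difference was 0.96, with both remaining TAC hearts still above all control sham hearts (exact permutation p = 0.0667, the smallest that 2 against 4 hearts allow). In Trbp-cKO hearts the ratio was -1.11 ± 0.78 in sham and -0.56 ± 0.21 in TAC, and these overlapped. The ratio of Apln to Pecam1 and Cdh5 overlapped in all 4 comparisons.

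**Figure D5:**
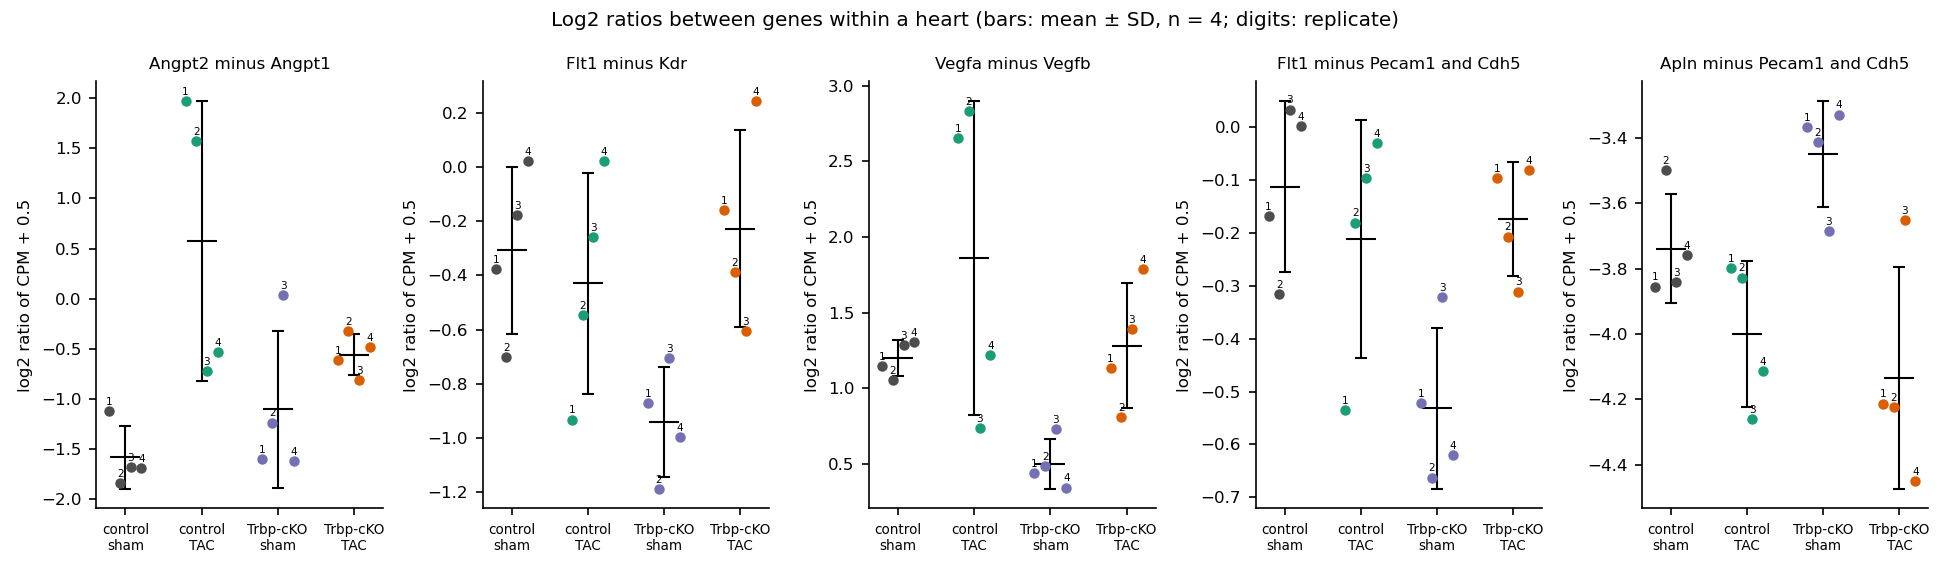
Each panel is 1 log2 ratio between genes of the same heart, on a log2 axis, with points for hearts, digits for replicates and bars for the mean and SD of 4 hearts. The Trbp-cKO sham hearts lie below all control sham and Trbp-cKO TAC hearts for Flt1 to Kdr (-1.19 to -0.71) and for Vegfa to Vegfb (0.35 to 0.73), while control TAC heart 1 is at -0.93 for Flt1 to Kdr.

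Around these genes, pathway lists were counted, and with the clock score as a covariate 26 of 36 calls of genes in these and the endothelial marker lists were lost. The lymphatic marker Ccl21a has 2 gene entries, and the calls of both, each lost, are in these counts. In 11 of these 26 the log2 fold change was no smaller in size than without the covariate, so that a lost call there does not mean a smaller difference. Among the genes named from the pathway lists, the calls kept in that fit were those of Sox7, Fgf1, Slc2a1 and Bnip3 between the TAC groups and those of Svep1 after TAC in both genotypes. The rest of the VEGF family showed no calls. Of 3 further ligands (Vegfc, Vegfd and Pgf) and 3 further receptors and coreceptors (Flt4, Nrp1 and Nrp2), 0 were called in any of the 4 comparisons or the interaction by edgeR, and none had an adjusted p of at most 0.05. Vegfc, the lymphatic ligand, was the nearest, at 0.88 (SE 0.27, adjusted p = 0.0677) after TAC in control hearts. Aplnr, the apelin receptor, was at 1.59 (SE 0.49, adjusted p = 0.0639) in the same comparison. With control TAC hearts 1 and 2 left out, Vegfc was at 0.26 (adjusted p = 0.849) and Aplnr at 0.21 (adjusted p = 0.949), and Apela was listed but too low to test.

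Of 7 further angiopoietin and Tie genes, 1 was called, Svep1, a matrix protein that binds TIE1. It rose by 1.29 (SE 0.17, adjusted p = 0.000875) after TAC in control hearts and by 1.67 (SE 0.17, adjusted p = 2.38e-05) in Trbp-cKO hearts, and was higher by 0.80 (SE 0.17, adjusted p = 0.0120) in Trbp-cKO TAC than in control TAC hearts. It lay at 10.9 to 17.6 CPM in control sham, 27.4 to 40.7 CPM in control TAC, 16.9 to 22.3 CPM in Trbp-cKO sham and 53.8 to 79.8 CPM in Trbp-cKO TAC hearts, with no overlap between sham and TAC or between the TAC groups. The calls after TAC held in all 29 alternative settings in both genotypes, and that between the TAC groups, at the fold threshold, was lost in 14 of 29. Tie1 itself, the partner of TEK, differed by 0.34 (SE 0.20, adjusted p = 0.287) after TAC in control hearts, and by 0.012 (adjusted p = 0.996) with hearts 1 and 2 left out.

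Among 12 tip cell genes, which mark sprouting endothelium and include Angpt2 and Apln, 3 rose after TAC in control hearts and 12 of 12 were above 0. They were Esm1 at 2.1 (SE 0.52, adjusted p = 0.0293), Nid2 at 0.93 (SE 0.20, adjusted p = 0.0158) and the netrin receptor gene Unc5b at 0.82 (SE 0.18, adjusted p = 0.0169). Esm1, endothelial cell-specific molecule 1, was at 7.11 and 12.9 CPM in control TAC hearts 1 and 2 and at 2.91 and 1.58 CPM in hearts 3 and 4. Control sham hearts were at 1.12 to 1.77 CPM of Esm1. Nid2 was at 29.9 to 55.0 CPM in control TAC and 20.9 to 22.7 CPM in control sham hearts. Unc5b was at 44.1 to 63.3 CPM and 24.6 to 39.3 CPM, and neither Nid2 nor Unc5b overlapped. Without hearts 1 and 2, 0 of the 12 were called in this comparison by edgeR. Only 6 of the 12 were above 0 then, with a median of 0.0055, and Angpt2 and Apln were among those below it. Between the TAC groups 9 of 12 were below 0 and 1, Angpt2, was called. Without hearts 1 and 2, 8 of 12 were above 0 there and 2 were called higher, the basement membrane collagens Col4a1 and Col4a2. In Trbp-cKO hearts Col4a2 rose by 0.83 (SE 0.19, adjusted p = 0.0119) after TAC, at 594 to 752 CPM against 274 to 427 CPM.

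Of 11 angiogenic Notch genes, 1 was called: the ligand Jag1, which rose by 0.84 (SE 0.20, adjusted p = 0.0242) after TAC in control hearts and was not called without hearts 1 and 2. Dll4, the Notch ligand of tip cells, differed by -1.02 (SE 0.30, adjusted p = 0.0578) between the TAC groups, and by -0.21 (adjusted p = 0.648) with hearts 1 and 2 left out. In a list of 18 endothelial transcription factors, which also holds Tek, Sox7 was lower by -1.05 (SE 0.25, adjusted p = 0.0247) in Trbp-cKO TAC than in control TAC hearts, and Foxc2 rose by 1.08 (SE 0.31, adjusted p = 0.0356) after TAC in Trbp-cKO hearts. The call of Foxc2 held without control TAC hearts 1 and 2, which are in neither of its groups. It was lost in 9 of 29 alternative settings, among them the clock score as a covariate (0.48, adjusted p = 0.802). That of Sox7 was lost without control TAC hearts 1 and 2. Sox7 was at 30.4 and 32.9 CPM in control TAC hearts 3 and 4, above the 16.9 to 19.5 CPM of all Trbp-cKO TAC hearts. Of 14 junction genes, which include Pecam1 and Cdh5, 0 were called in the 4 pairwise comparisons by edgeR, and Jam3, a junctional adhesion molecule, was called in the interaction at -0.89 (SE 0.18, adjusted p = 0.0325), a call lost in 15 of 27 alternative settings. At an adjusted p of at most 0.05 with a smaller fold, Jam3 was higher by 0.54 after TAC and by 0.67 in Trbp-cKO sham, both against control sham.

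Of 23 genes of endothelial signalling and sprouting, 2 fell after TAC in control hearts: the growth factor Fgf1 by -1.17 (SE 0.29, adjusted p = 0.0285) and the angiogenesis inhibitor Thbs1 by -2.64 (SE 0.50, adjusted p = 0.00811), and neither was called without hearts 1 and 2, when Fgf1 was at -0.89 (adjusted p = 0.332) and Thbs1 at -2.96 (adjusted p = 0.0826). Thbs1 was at 243, 213, 262 and 55.0 CPM in control sham hearts, at 19.5 to 46.1 CPM in control TAC, 10.2 to 18.2 CPM in Trbp-cKO sham and 42.2 to 166 CPM in Trbp-cKO TAC hearts. It was lower by -3.94 (SE 0.53, adjusted p = 0.00247) in Trbp-cKO sham than in control sham hearts and rose by 2.66 (SE 0.50, adjusted p = 0.00299) after TAC in Trbp-cKO hearts. With the clock score as a covariate these became -2.13 (adjusted p = 0.902) and 1.57 (adjusted p = 0.427), and neither was called. Fgf1 was higher by 1.14 (SE 0.29, adjusted p = 0.0315) in Trbp-cKO TAC than in control TAC hearts. This call was kept with the clock score and lost without control TAC hearts 1 and 2. Control TAC hearts 3 and 4 were at 70.2 and 63.6 CPM of Fgf1, and Trbp-cKO TAC hearts 1 to 4 at 137, 146, 146 and 57.2 CPM.

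Vegfa is a known target of hypoxia-inducible factors, and 19 other genes known to respond to hypoxia were counted beside it. Between the TAC groups 2 of 19 were called, both higher in Trbp-cKO, and 15 were above 0, with a median of 0.39 against -0.01 over all genes. They were the glucose transporter gene Slc2a1 at 1.02 (SE 0.13, adjusted p = 0.000441) and the mitophagy gene Bnip3 at 0.87 (SE 0.18, adjusted p = 0.0128). Slc2a1 was at 31.0 to 40.6 CPM in Trbp-cKO TAC hearts and at 15.0 to 21.9 CPM in all other hearts. The count was also 2 without control TAC hearts 1 and 2, with Car9 in place of Bnip3, and 13 were then above 0 with a median of 0.26. In Trbp-cKO hearts 1 of 19, Slc2a1, rose after TAC, and Vegfa there differed by 0.29, as given above. In Trbp-cKO sham against control sham edgeR called 0 of 19 and 4 were above 0, and with control TAC hearts 1 and 2 left out it called P4ha1, a collagen prolyl hydroxylase gene, lower. After TAC in control hearts 13 of 19 were below 0, with a median of -0.35 against 0.02 over all genes. Ankrd37 alone was called there, higher by 1.20 (SE 0.34, adjusted p = 0.0457), and not without hearts 1 and 2, when 7 of 19 were above 0 with a median of -0.052.

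For each gene, the genes most like it were sought among 12960 with a mean log2 CPM of at least 1, by Pearson's r over 16 hearts, as a description with no test. Flt1 was nearest to Dennd3 (r = 0.98), Kdr to Tspan15 (0.95), Tek to Cdh5 (0.97), Cdh5 to Cyyr1 (0.97) and Pecam1 to Thsd1 (0.98). Apln was nearest to Sept4 (0.93), and Angpt2 to Nr2f1 (0.97), with the pericyte gene Rgs5 also among its 3 nearest (0.95). Angpt1 was nearest to Rit1 (0.96), Vegfb to Map1lc3a (0.99) and Vegfa to Sfpq (0.88), the lowest of the 10. These pairs had r of 0.84 (Vegfa and Sfpq) to 0.97 (Vegfb and Map1lc3a) without control TAC hearts 1 and 2. After the group means were removed, Pecam1 was nearest to Adgrl4 (0.99) and Tek to the same gene (0.98), Cdh5 to Cyyr1 (0.99), Kdr to Sema6a (0.97) and Vegfa to Gdf15 (0.93).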

How the data were processed

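Whole-ventricle RNA of 16 hearts was sequenced as paired reads of 150 bases. Per the labels and the study's methods, the authors used cutadapt 2.3 for trimming and HISAT2 2.1.0 for alignment to GRCm38, and deposited whole-number gene counts derived from StringTie 1.3.4. Such counts are inferred from coverage and a read length whose setting is not given in the sources used here. A wrong setting would scale all counts alike, so counts divided by 2 were an alternative. Symbols and positions came from GENCODE for GRCm38, and promoters from RefSeq.

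Counts were fitted with edgeR 4.0.16 in R 4.3.3: filterByExpr, TMM factors, 1 robust quasi-likelihood fit over all 16 hearts with a mean per group, Benjamini-Hochberg adjustment, thresholds of 0.05 and 0.8 (log2). The SE of a log2 fold change is its size divided by the root of the F statistic. The study's methods name edgeR for CPM and an exact test named after Fisher; edgeR's exact test and DESeq2 1.42.0 were alternatives. CPM uses TMM-scaled library sizes. Libraries held 45166994 to 68274222 counts. Exact permutation tests are two-sided, over 70 assignments with 4 against 4 hearts.

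The members and lists were chosen with earlier results of these data known. All members were tested in every comparison, and not every difference is printed in the text. Of each list, counts and up to 3 called genes per direction and comparison were named, and the 3 most correlated genes of each member were computed. A gene of the hypoxia list is not reported here and was left out of its counts. Labels call the hearts of a group biological replicates. Alternatives were other scalings, filters, tools and fold thresholds, fewer groups, a replicate block, a clock score or endothelial marker mean as covariate, each heart left out, other pseudocounts, and Spearman's rho. Leaving out control TAC hearts 1 and 2 together was chosen after seeing the data. DESeq2's missing adjusted p-values stayed missing.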

Additional observations from a re-analysis of the deposited data

Results flagged for a closer look

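None of the 40 sets of 4 hearts (10 genes in 4 groups) and none of the 20 sets of ratios held a heart that stood apart by Dixon's criterion of 0.829, the gap of the outermost heart as a share of the group's range. Among 23 genes of the pathway and endothelial marker lists that were called in any comparison, 12 of 92 sets did, where chance gives about 1 in 20. In Trbp-cKO TAC the highest heart stood apart for Thbs1 (166 CPM against the next at 55.6, share 0.892), Plvap (58.5 against 17.9, 0.842), Fbln5 (107 against 43.0, 0.831), Reln (30.9 against 12.6, 0.910), Foxc2 (6.96 against 3.52, 0.847) and Sox7 (19.5 against 17.3, 0.853). The lowest heart of that group stood apart for Fgf1 (57.2 against 137 CPM, 0.889) and Bnip3 (165 against 218 CPM, 0.858). In Trbp-cKO sham the highest heart stood apart for Aqp1 (575 against 336 CPM, 0.900), Car4 (30.2 against 19.7, 0.885), Cd34 (190 against 143, 0.885) and Jam3 (29.5 against 25.1, 0.870), in each case heart 3, the heart of that group with the highest endothelial marker sum.

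The effect of TAC differed between the genotypes, by edgeR's interaction term and both thresholds, for 4 of the 23 genes, which were chosen for being called in some comparison, the interaction included (0.872% of all genes were called in it). On the log2 scale the interaction was 5.30 for Thbs1, 1.02 for Slc2a1, -0.887 for Jam3 and -1.16 for Car4. Without control TAC hearts 1 and 2, those of Thbs1 and Slc2a1 were still called, at 5.61 and 1.00. With the clock score as a covariate none of the 4 was called. The interaction was then 3.27 for Thbs1, 0.625 for Slc2a1 and -0.783 for Car4, and for Jam3 it was larger in size, at -1.23.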

How the results depend on the processing

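Of 1430 log2 fold changes of the 10 genes under alternatives, 1348 kept their direction and their side of the thresholds, 65 changed sign, 9 lost a call and 8 gained one. None of the sign changes was in a called value, and the cause of each change was not tested. With the clock score as a covariate 0 genes were called after TAC in control hearts (1 otherwise), and Vegfa was 0.060 there. That fit gave Flt1 0.14 and Angpt1 0.47 in Trbp-cKO sham against control sham, Pecam1 -0.18 after TAC in Trbp-cKO hearts, and interactions of -0.041 for Vegfa, -0.48 for Flt1 and -0.66 for Angpt1. With the endothelial marker mean as a covariate, the values after TAC in control hearts were Flt1 -0.19, Kdr -0.10, Angpt2 -0.40, Tek -0.13, Apln -0.37, Pecam1 -0.080 and Cdh5 -0.14. In Trbp-cKO sham against control sham it gave Vegfb 0.095, Angpt2 -0.17, Tek -0.061, Pecam1 -0.11 and Cdh5 -0.074. It gave, between the TAC groups, Flt1 0.0053 and Pecam1 0.085, and in the interaction Vegfb -0.066, Tek 0.028 and Pecam1 0.20. Leaving out control TAC hearts 1 and 2, a choice made after seeing the data, gave Flt1 -0.0050, Kdr -0.19, Angpt2 -0.55, Tek -0.097, Apln -0.53, Pecam1 -0.042 and Cdh5 -0.059 after TAC in control hearts. It gave, between the TAC groups, Vegfa 0.11, Vegfb -0.17, Flt1 0.021, Kdr 0.070, Tek 0.076, Apln 0.17 and Pecam1 0.23, and in the interaction Vegfb -0.15, Tek 0.036 and Pecam1 0.22. It also took the genes without overlap from 2 to 6 after TAC in control hearts and from 0 to 1 between the TAC groups, where 29.6% and 29.4% of all genes then did not overlap. The log2 ratio of Angpt2 to Angpt1 then differed by 0.96 after TAC in control hearts and 0.069 between the TAC groups, and that of Vegfa to Vegfb by -0.22 and 0.30, whereas the other 206 of 210 ratio values moved by less than the spread of hearts. Library size alone gave Vegfb 0.076 between the sham groups and Angpt1 0.093 between the TAC groups, and upper-quartile factors gave Flt1 an interaction of -0.021. In place of Angpt2, 0 genes were called between the TAC groups with the replicate block, with only the 2 groups in the fit and without control TAC hearts 1 and 2. After TAC in Trbp-cKO hearts 2 were called, in place of 1, with the endothelial mean, only the 2 groups, edgeR's exact test, DESeq2 and without these hearts.

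With each heart left out in turn, calls ran from 1 to 2 after TAC in control hearts, 0 to 1 between the TAC groups and 1 to 2 after TAC in Trbp-cKO hearts, and genes without overlap from 1 to 3 between the sham groups, 0 to 3 between the TAC groups and 3 to 5 after TAC in Trbp-cKO hearts. Over all genes the share without overlap in these settings was 17.3% to 21.7%, 11.7% to 20.9% and 19.5% to 25.9%. Between the sham groups Vegfb ran from -0.058 to 0.027, Angpt2 from -0.22 to 0.20, Tek from -0.075 to 0.12, Pecam1 from -0.12 to 0.12 and Cdh5 from -0.10 to 0.21. Angpt1 ran from -0.22 to 0.12 between the TAC groups. After TAC in Trbp-cKO hearts Tek ran from -0.23 to 0.079, Pecam1 from -0.065 to 0.33 and Cdh5 from -0.39 to 0.049, and the interaction of Flt1 from -0.23 to 0.34. Over all genes, calls after TAC in control hearts ran from 54 (clock score) to 1583 (without control TAC heart 4) around 748, between the sham groups from 0 (clock score) to 601 (edgeR's exact test) around 193, between the TAC groups from 84 (only the 2 groups) to 1103 (no fold threshold) around 491, after TAC in Trbp-cKO hearts from 293 (clock score) to 1983 (no fold threshold) around 1112, and in the interaction from 1 (clock score) to 552 (DESeq2) around 174. The labels do not say whether hearts with the same replicate number shared more than that number. Of 24 pairs with the same number, 7 had correlated deviations above 0.1 (range -0.56 to 0.40). The block changed no other call of the 10 genes than that of Angpt2 between the TAC groups. Over all genes the block gave 383 calls after TAC in control hearts, 107 between the sham groups, 274 between the TAC groups and 54 in the interaction. Depth limits Angpt2, at 1.91 to 11.3 CPM, and Angpt1 more than the other genes.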

Other observations

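Beside the 10 genes, markers of endothelial subtypes were counted, with differences on the log2 scale. Of 8 capillary markers, 2 were called lower in Trbp-cKO TAC than in control TAC hearts by edgeR's quasi-likelihood test, against 2.46% of all genes. They were the carbonic anhydrase gene Car4 at -1.23 (SE 0.17, adjusted p = 0.000812) and the water channel gene Aqp1 at -1.05 (SE 0.22, adjusted p = 0.0137). Of the 8, 7 were below 0 there. With control TAC hearts 1 and 2 left out, 4 of 8 were above 0, with a median of 0.018. Car4 was at 11.9, 10.8, 9.62 and 7.61 CPM in Trbp-cKO TAC hearts 1 to 4 and at 20.7 to 26.6 CPM in control TAC hearts, with no overlap. Its lowest value was that of Trbp-cKO TAC heart 4, in which the 13 endothelial markers outside the 10 genes summed highest of that group. Car4 also fell after TAC in Trbp-cKO hearts, at -1.12 (SE 0.17, adjusted p = 0.00066), which was not called with the clock score as a covariate (-0.93, adjusted p = 0.113). With control TAC hearts 1 and 2 left out the difference of Car4 between the TAC groups was still called, at -1.11 (adjusted p = 0.00662), and that of Aqp1 was not, at -0.77 (adjusted p = 0.0889).

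Of 8 venous and endocardial markers, 2 rose after TAC in Trbp-cKO hearts: Npr3, a natriuretic peptide clearance receptor known from the endocardium, at 1.36 (SE 0.25, adjusted p = 0.00273), and Plvap, a component of endothelial diaphragms, at 1.54 (SE 0.44, adjusted p = 0.0382). Npr3 was at 40.1 to 47.4 CPM in Trbp-cKO TAC hearts 1 to 3, at 19.9 CPM in heart 4 and at 11.4 to 17.0 CPM in Trbp-cKO sham hearts. Plvap was at 15.5, 10.3, 17.9 and 58.5 CPM against 7.80 to 10.7 CPM, which overlapped. The heart with the lowest Npr3 of the 4, heart 4, thus had the highest Plvap. Of 8 arterial markers Fbln5 rose in the same comparison, and of 7 lymphatic markers Reln, both highest in Trbp-cKO TAC heart 4. The arterial markers went both ways, with 5 above 0 and 3 below, as did the lymphatic markers, with 4 above 0 and 3 below. Lyve1, a lymphatic hyaluronan receptor, was at -0.77 (SE 0.18, adjusted p = 0.0132), short of the fold threshold. All 4 calls held with control TAC hearts 1 and 2 left out, which are in neither group of this comparison. Of 29 alternative settings, the call was lost in 13 for Plvap, 8 for Fbln5, 2 for Reln and 0 for Npr3. With the clock score as a covariate Npr3 was still called, at 1.59, and Plvap (0.31, adjusted p = 0.944), Fbln5 (0.47, adjusted p = 0.842) and Reln (0.83, adjusted p = 0.496) were not.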
